A study of Homo sapiens with 4 samples.

Results

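The genes examined here encode the core DNA replication machinery of human cells, from origin recognition to the joining of Okazaki fragments. They were 44 genes chosen by listed symbol (the MCM, ORC, GINS, POL, PRIM, RFC and RPA subunits with CDC6, CDT1, GMNN, CDC45, PCNA, FEN1 and LIG1). Each was found on 1 row of the deposited table, and all 44 were among its 23333 tested genes, those with an adjusted p-value. The values came from wildtype HEK293T cells, derived from human embryonic kidney and expressing the large T antigen of SV40. The cells were crosslinked with formaldehyde and split into a nuclear and a cytoplasmic fraction, in buffers without magnesium and with EDTA. RNA of each fraction was sequenced from 2 biological replicates, giving 4 libraries made from 400 ng of ribosome-depleted RNA each. The study fractionated these cells to ask where the transcripts bound by nuclear and cytoplasmic poly(A) binding proteins reside. Both groups share the line, the genotype and the crosslinking, and no untreated or second line was compared.

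Replication starts at origins that the origin recognition complex (ORC) marks and that CDC6 and CDT1 load with the ring-shaped MCM2-7 helicase. In S phase CDC45 and GINS join the ring to form the active helicase, polymerase alpha-primase lays down primers, and polymerases epsilon and delta extend the leading and the lagging strand on the PCNA clamp. Many genes of this set are targets of E2F transcription factors. All of these proteins work in the nucleus, but their mRNAs are translated in the cytoplasm.

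Of the 44 replication genes, 28 were called higher in the cytoplasmic fraction, 10 were called higher in the nuclear fraction and 6 did not pass the test. A gene was called where the adjusted p-value of the authors' deposited DESeq2 test did not exceed 0.01, and fold changes are cytoplasm over nucleus throughout. The cytoplasmic calls made up 63.6% of the replication genes, against 25.9% of all tested genes and 35.6% of tested protein-coding genes. The nuclear calls made up 22.7%, against 26.5% of all tested genes and 28.4% of protein-coding genes. The median log2 fold change of the replication genes was 0.79, beside -0.12 over all tested genes and 0.11 over protein-coding genes. The largest cytoplasmic value was that of POLE3, a histone-fold subunit of polymerase epsilon, which was 8.62-fold higher in the cytoplasm. The largest nuclear value was that of PRIM2, the large primase subunit, which was 5.85-fold higher in the nucleus. The replication genes were also abundant, with mean normalized counts from 324 for POLE4 to 12554 for MCM7 and a median of 2158, against 582 for tested protein-coding genes. The shares called above were not matched for abundance, on which passing the test also depends.

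Since all libraries started from equal RNA, these values compare relative levels on the authors' scale and not amounts per cell. The authors' scaling gave the cytoplasmic fraction a larger normalized total, and setting both totals equal lowers every log2 fold change by 0.66. On that scale 20 replication genes were called cytoplasmic and 14 nuclear, against 16.2% and 38.3% of all tested genes. The median of the replication genes was then 0.13. The 44 genes together made up 0.551% of the normalized counts of the nuclear fraction and 0.592% of those of the cytoplasmic fraction. In the plot of fold changes by role, a dotted line marks where the equal-totals scale has its zero.

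**Figure D1:**
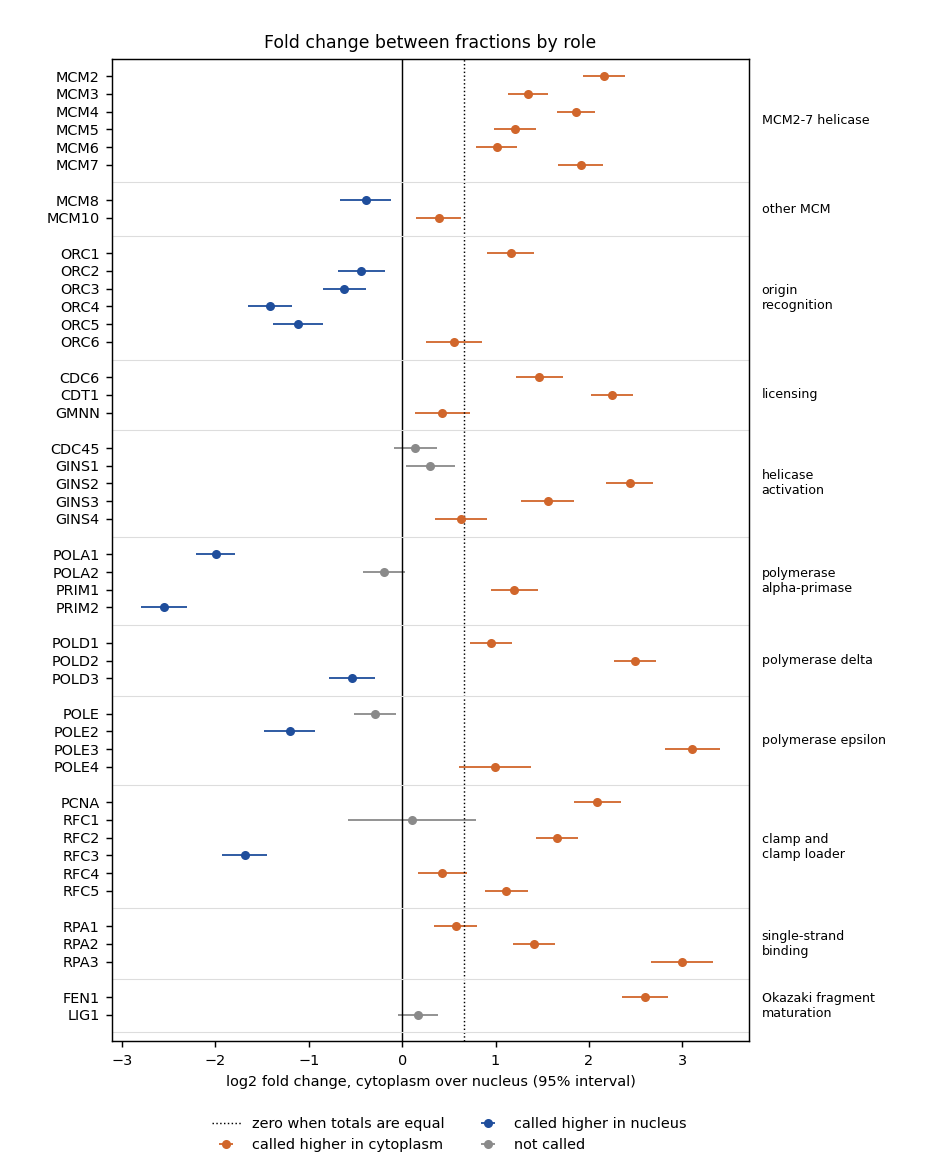
The log2 fold change of each replication gene, cytoplasm over nucleus, with its 95% interval from the authors' deposited standard error, grouped by role. The 6 MCM2-7 genes all lie to the right of zero, whereas the subunits of ORC, polymerase alpha-primase, polymerase epsilon and the clamp loader lie on both sides, and the 2 genes farthest to the left are PRIM2 and POLA1.

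The deposited table gives 1 mean per gene and no column for a single library, but the counts of each library could be worked back from its mean, fold change and standard error. This gave whole counts for 22638 tested genes (97.0%), including all 44 replication genes. Totals over these genes were 22025829 and 19192134 counts in the nucleus and 16477040 and 15132194 in the cytoplasm. Abundant genes such as GAPDH and MALAT1 were not recovered, so these totals fall short of the whole. The shortfall was larger in the cytoplasm, where the 44 genes held 0.851% and 0.874% of the recovered counts, against 0.592% of all normalized counts. In the nucleus they held 0.60% and 0.63%, against 0.551%. Each library is named here as the deeper or the shallower of its fraction, since its replicate number is not known. In 31 replication genes both cytoplasmic libraries were above both nuclear ones and in 12 both were below, against 40.7% and 45.9% of the genes with recovered counts. Only in RFC1 did the fractions overlap. A limma-voom fit of the recovered counts gave the same call as the deposited test for all 44 genes, where 31.2% of all genes with recovered counts were cytoplasmic and 33.7% nuclear by that fit. The counts were found so as to return the deposited mean, fold change and error, so this agreement was nearly fixed in advance.

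**Figure D2:**
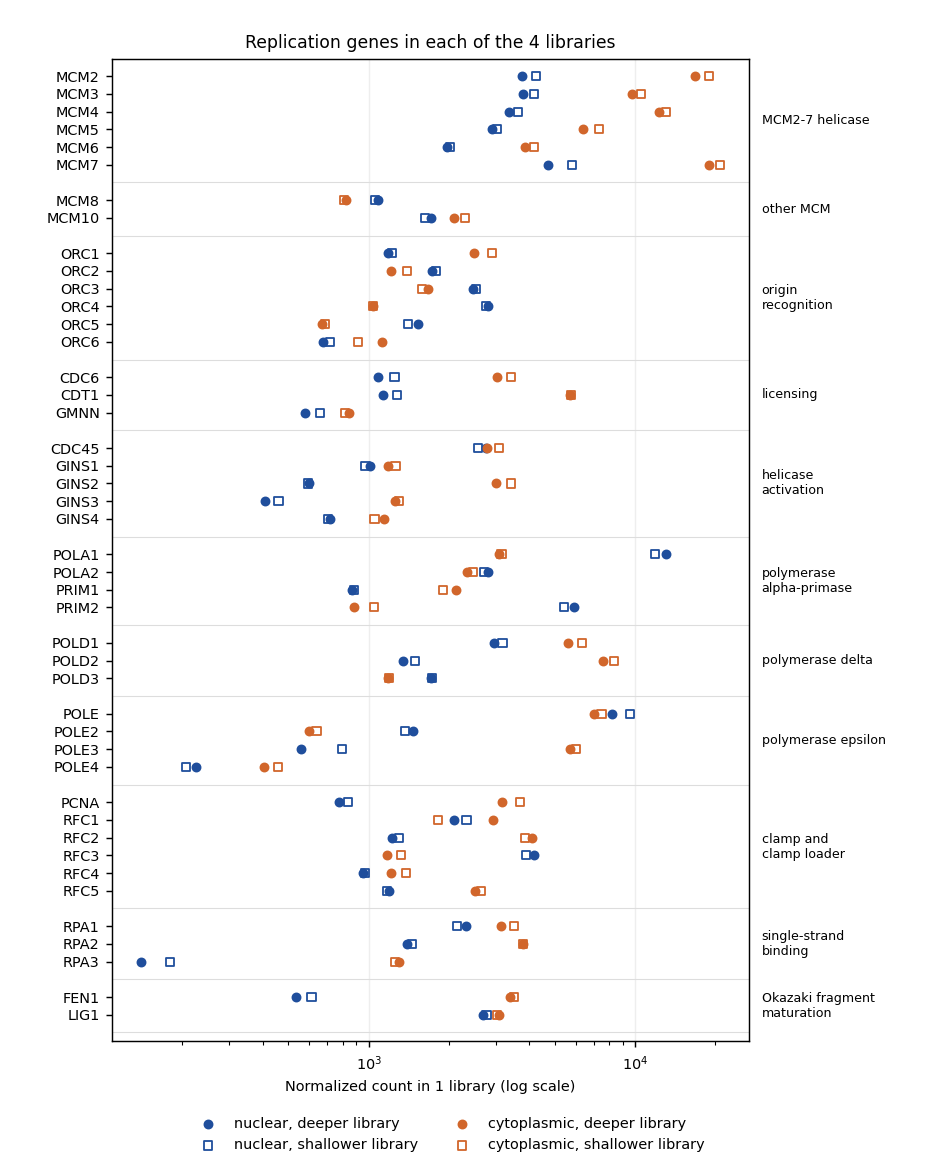
Normalized count of each replication gene in each of the 4 libraries, on a log axis, with both nuclear libraries in blue and both cytoplasmic libraries in orange. The replicates of a fraction lie close together for nearly every gene, and RFC1 is the gene whose cytoplasmic libraries fall on either side of the nuclear ones.

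The fractions and the line were checked against markers. NEAT1, a nuclear lncRNA, was at a log2 fold change of -3.09 and ACTB, encoding cytoplasmic actin, at 2.68 in the authors' deposited table. Of the markers of HEK293 cells, the neurofilament genes NEFL and NEFM had mean normalized counts of 13195 and 16264, LHX1 of 245 and PAX2 of 63.1. Of 6 markers of other cell types, PTPRC, CD3E, ALB, HBB and PECAM1 had means from 0.293 to 6.22, while the collagen gene COL1A1 was at 213.

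Sequence motifs were searched in the promoters, which the choice of members did not use. RefSeq promoters of GRCh38.p14, reaching from 250 bases before to 50 after the start, were at hand for 38 of the 44 genes. They were searched on both strands for E2F-type motifs, spelled TTTCCCGC, TTTCGCGC, TTTGCCGC and TTTGGCGC. At least 1 match was present in 19 of the 38 promoters (50%), in 4.98% of the promoters of other tested protein-coding genes and in 3.33% of all promoters. At least 2 matches, counting overlapping ones separately, were present in 4 promoters of the set (MCM2, MCM3, MCM6 and MCM7), or 10.5%. The share was 0.238% for promoters of other tested protein-coding genes and 0.154% for all promoters. The windows of 30 bases below run 5′ to 3′ on the strand of the gene and lie before its RefSeq start, with the motif or its reverse complement in capitals. The first 4 belong to genes that were higher in the cytoplasm and the last 2 to genes that were higher in the nucleus, so that a match can be seen on both sides.
MCM3 (chr6:52284898-52284927, minus strand): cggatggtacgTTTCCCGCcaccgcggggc
MCM6 (chr2:135876577-135876606, minus strand): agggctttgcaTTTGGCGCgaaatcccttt
PCNA (chr20:5126663-5126692, minus strand): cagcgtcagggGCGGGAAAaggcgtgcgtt
CDT1 (chr16:88803743-88803772, plus strand): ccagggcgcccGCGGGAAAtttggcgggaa
RFC3 (chr13:33818083-33818112, plus strand): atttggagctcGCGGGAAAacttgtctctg
POLA1 (chrX:24693770-24693799, plus strand): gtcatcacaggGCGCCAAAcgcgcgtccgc
Counted from the RefSeq start, the first base of the capitals lies 174 bases before MCM3, 152 before MCM6, 59 before PCNA, 35 before CDT1, 55 before RFC3 (start at 33818149) and 137 before POLA1 (start at 24693918). Gene coordinates elsewhere are those of GENCODE 44, whose outermost starts of MCM3, PCNA, RFC3 and POLA1 lie further upstream. For MCM3 that start is at 52284881, against a RefSeq start of 52284742. The RFC3 window lies inside the GENCODE gene model. In MCM6 the printed match overlaps a second one on the other strand, GCGCGAAA. The 19 genes with a match had a median log2 fold change of 0.99, with 10 called cytoplasmic and 5 nuclear. The 19 genes without one had a median of 0.55, with 13 called cytoplasmic and 4 nuclear. A match is a description of the letters and not of a bound factor.

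The MCM2-7 genes, whose products form the 6 subunits of the replicative helicase, were all higher in the cytoplasm, with log2 fold changes from 1.01 for MCM6 to 2.16 for MCM2. MCM2 (chromosome 3, 127598410 to 127622436, plus strand) had normalized counts of 3755 and 4231 in the nuclear libraries and 16726 and 18920 in the cytoplasmic libraries. The fractions did not overlap, and the difference was 4.46-fold (standard error 0.11 on the log2 scale, DESeq2 adjusted p-value 3.91e-78). MCM7 had the highest mean of the set, with 4723 and 5815 in the nuclear and 18869 and 20810 in the cytoplasmic libraries. It was 3.77-fold higher in the cytoplasm, and MCM4 was 3.63-fold higher. MCM3 and MCM5 followed at log2 fold changes of 1.35 and 1.21. MCM6 was the lowest, with 1964 and 2027 nuclear and 3867 and 4185 cytoplasmic normalized counts. All 6 stayed cytoplasmic calls with equal totals, MCM6 then at 0.35.

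Divided by the exonic length of the canonical transcript, MCM7 stood first among the 44 genes in the cytoplasm, at 8042 normalized counts per kb, followed by MCM2 at 5190 and by POLD2 at 4962. PCNA, at 2691, was close to POLE3, at 2657. These counts hold intronic reads too, and stretches shared with other genes were left out of counting, so the order is only approximate. Of the MCM2 exons, 23.6% lie under another gene of the annotation. MCM8, part of a helicase used in recombination repair, and MCM10, which acts when the helicase is activated, are not subunits of the ring. MCM8 had 1081 and 1056 normalized counts in the nuclear and 822 and 807 in the cytoplasmic libraries, a log2 fold change of -0.39. MCM10 had 1716 and 1625 nuclear and 2086 and 2294 cytoplasmic normalized counts, a log2 fold change of 0.39. MCM8 was called nuclear and MCM10 cytoplasmic. These calls lay near the threshold, with DESeq2 adjusted p-values of 0.00827 for MCM8 and 0.00288 for MCM10. With single libraries left out of the limma-voom fit, MCM8 was no longer called in 3 of 4 fits (log2 fold changes from -0.41 to -0.37) and MCM10 in 2 of 4 (0.32 to 0.46).

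The origin recognition complex was split. ORC1, the subunit whose protein level changes over the cell cycle, was 2.24-fold higher in the cytoplasm, with 1184 and 1227 nuclear and 2489 and 2906 cytoplasmic normalized counts. ORC6, the smallest subunit, was at a log2 fold change of 0.55 and also called cytoplasmic. ORC2, ORC3, ORC4 and ORC5 were called nuclear, at -0.44, -0.62, -1.42 and -1.12. ORC4 (chromosome 2, 147930396 to 148021604, minus strand) had 2798 and 2756 normalized counts in the nuclear libraries and 1037 and 1042 in the cytoplasmic libraries. Its replicates nearly coincided within each fraction, and it was 2.67-fold higher in the nucleus (DESeq2 adjusted p-value 1.2e-31). ORC5 had 1532 and 1409 nuclear and 670 and 685 cytoplasmic normalized counts. The calls of ORC2 and ORC6 each depended on the deeper cytoplasmic library: without it the limma-voom log2 fold changes were -0.34 for ORC2 (adjusted p-value 0.0296) and 0.40 for ORC6 (adjusted p-value 0.0178).

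The licensing genes were all called cytoplasmic. CDT1, which brings the helicase to the origin, had 1137 and 1273 nuclear and 5723 and 5746 cytoplasmic normalized counts, a 4.76-fold difference. CDC6, the ATPase that works with it, was 2.77-fold higher in the cytoplasm. GMNN encodes geminin, the inhibitor that binds CDT1 after licensing, and stood at a log2 fold change of 0.43 with normalized counts of 578 and 656 in the nucleus and 848 and 815 in the cytoplasm. The inhibitor gene was thus nearer to zero than the genes of both loading factors. GMNN was no longer called in 2 of 4 limma-voom fits that left out a library (0.34 to 0.53), and with equal totals it was at -0.23.

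Of the genes that activate the helicase, GINS2, GINS3 and GINS4 were called cytoplasmic, and GINS1 and CDC45 did not pass the test. GINS2 had 597 and 590 normalized counts in the nuclear and 2999 and 3420 in the cytoplasmic libraries, and was 5.41-fold higher in the cytoplasm. GINS3 was 2.94-fold higher, and GINS4 was at a log2 fold change of 0.63. GINS1, in the same complex of 4 proteins, was at 0.30 (DESeq2 adjusted p-value 0.0417). CDC45, the partner of GINS on the helicase, was at 0.14 with a 95% interval from -0.09 to 0.37. Its nuclear normalized counts of 2761 and 2570 lay just below the cytoplasmic ones of 2788 and 3086.

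The polymerase alpha-primase complex, which starts every new strand with an RNA and DNA primer, spread over 3.75 log2 units. POLA1, its catalytic DNA polymerase subunit (chromosome X, 24693873 to 24996986, plus strand), had the highest nuclear counts of all 44 genes, with 13050 and 11884 normalized counts against 3087 and 3153 in the cytoplasm. It was 3.996-fold higher in the nucleus (standard error 0.11 on the log2 scale, DESeq2 adjusted p-value 2.26e-76). PRIM2 (chromosome 6, 57314805 to 57646850, plus strand) had 5875 and 5407 nuclear and 884 and 1046 cytoplasmic normalized counts. Its log2 fold change was -2.55, with a standard error of 0.13 and a DESeq2 adjusted p-value of 2.28e-90. PRIM1, the catalytic primase subunit, lay on the other side, with 870 and 883 nuclear and 2134 and 1899 cytoplasmic normalized counts, a 2.30-fold difference. POLA2, the regulatory subunit, was at -0.20 and did not pass the test (95% interval -0.42 to 0.03).

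Polymerase delta, which copies the lagging strand, was split as well. POLD2, an accessory subunit, was 5.62-fold higher in the cytoplasm, with 1344 and 1498 nuclear and 7605 and 8363 cytoplasmic normalized counts. POLD1, the catalytic subunit, was 1.94-fold higher there, with 2961 and 3181 nuclear and 5591 and 6303 cytoplasmic normalized counts. POLD3, a subunit that binds PCNA, was called nuclear at -0.54, with 1717 and 1729 nuclear and 1185 and 1191 cytoplasmic normalized counts.

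Polymerase epsilon, which copies the leading strand, had the widest range of any role, 4.31 log2 units. POLE3 (chromosome 9, 113407235 to 113410675, minus strand) had 557 and 797 normalized counts in the nuclear and 5676 and 5985 in the cytoplasmic libraries. Its log2 fold change was 3.11 (standard error 0.15, DESeq2 adjusted p-value 3.48e-93). POLE4, the histone-fold partner of POLE3, was also called cytoplasmic, at 0.99, with 226 and 207 nuclear and 406 and 457 cytoplasmic normalized counts. POLE2, the second largest subunit, was 2.30-fold higher in the nucleus, with 1468 and 1370 nuclear and 596 and 637 cytoplasmic normalized counts. POLE, the catalytic subunit, was at -0.29 (DESeq2 adjusted p-value 0.0217), and both of its nuclear values, 8169 and 9577, were above its cytoplasmic ones, 7040 and 7482. Without the deeper nuclear library the limma-voom log2 fold change of POLE was -0.40, and without the shallower nuclear one it was -0.17. Thus in polymerases alpha, delta and epsilon at least 1 subunit was called in each direction.

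The sliding clamp and its loader differed in the same way. PCNA, the ring that tethers polymerases to DNA, had 777 and 836 nuclear and 3178 and 3691 cytoplasmic normalized counts, and was 4.26-fold higher in the cytoplasm. Of the 5 clamp loader genes, RFC2, RFC4 and RFC5 were called cytoplasmic at 1.66, 0.43 and 1.12. RFC3 (chromosome 13, 33818069 to 33966558, plus strand) was called nuclear, with 4168 and 3882 nuclear and 1173 and 1328 cytoplasmic normalized counts, a 3.22-fold difference (DESeq2 adjusted p-value 1.48e-42). RFC4 was no longer called without the shallower cytoplasmic library, at 0.34 (limma-voom adjusted p-value 0.0318).

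RFC1, the largest loader subunit, could not be placed in a fraction. Its recovered counts were 2800 and 2771 in the nuclear and 2502 and 1374 in the cytoplasmic libraries, or 2088 and 2330 against 2934 and 1821 after normalization. The cytoplasmic values thus lay above and below both nuclear ones. They differed by 0.69 log2 units, where the next largest difference of the cytoplasmic libraries among the 44 genes was 0.29. The deposited log2 fold change was 0.11 with a standard error of 0.35, against 0.20 or less for the other 43 genes. Without the deeper cytoplasmic library the limma-voom value was -0.28 (adjusted p-value 0.0711), and without the shallower one it was 0.41 (adjusted p-value 0.00389).

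The genes of replication protein A, the complex that covers single-stranded DNA, were all called cytoplasmic and differed widely in size of effect. RPA3, the smallest subunit, had 140 and 180 nuclear and 1297 and 1252 cytoplasmic normalized counts, a 7.98-fold difference. RPA2 was 2.66-fold higher in the cytoplasm and RPA1, the large subunit, 1.49-fold. With equal totals RPA1 was at -0.09 and no longer called. FEN1, the nuclease that trims Okazaki fragments, had 534 and 610 nuclear and 3398 and 3526 cytoplasmic normalized counts, a 6.05-fold difference. LIG1, the ligase that then seals the nick, was at 0.17 with a 95% interval from -0.05 to 0.39, from 2685 and 2770 nuclear and 3099 and 3032 cytoplasmic normalized counts.

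The fold changes followed the length of the genes. Across the 44 genes the Spearman correlation of gene span with log2 fold change was -0.697, and it was -0.708 over 12134 tested protein-coding genes whose mean exceeded 50. The authors counted reads of exons and introns together, so a long gene offers more intronic sequence to unspliced RNA, and the part of such reads cannot be told apart in these counts. With the span of the canonical GENCODE 44 transcript the correlation was -0.690, with intron length -0.704 and with exonic length -0.399. All 7 genes whose canonical transcript spans up to 10 kb were called cytoplasmic, with a median log2 fold change of 2.25, where 82.4% of 2438 protein-coding genes of that span were. Of the 12 genes above 50 kb, 7 were called nuclear and 2 cytoplasmic, where 65.5% and 11.04% of 4395 protein-coding genes were. PRIM2 and POLA1, the most nuclear genes of the set, were also those with the longest spans, 329 and 303 kb. Genes, which share libraries, are no replicates, and these correlations are descriptions.

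Of the 10 replication genes between 10 and 20 kb, 9 were called cytoplasmic, with a median of 1.06, where 65.8% of 2001 protein-coding genes were called so, with a median of 0.99. Of the 15 replication genes between 20 and 50 kb, 10 were called cytoplasmic, with a median of 1.01, where 44.9% of 3300 protein-coding genes were called so, with a median of 0.33. MCM2, MCM3, MCM5 and MCM6 were among them. In the span plot RPA3 and RFC3 lay far from the trend. RPA3, with a canonical span of 82.1 kb, was at 2.997, and 94.9% of its span lies under other genes of the annotation, stretches that the authors left out of counting where their own annotation held them. RFC3 was at -1.69 with a canonical span of 19.4 kb, whereas its annotated gene reaches 148 kb. The annotated gene of GINS3 reaches 111 kb against a canonical span of 13.7 kb, and GINS3 was called cytoplasmic at 1.56.

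**Figure D3:**
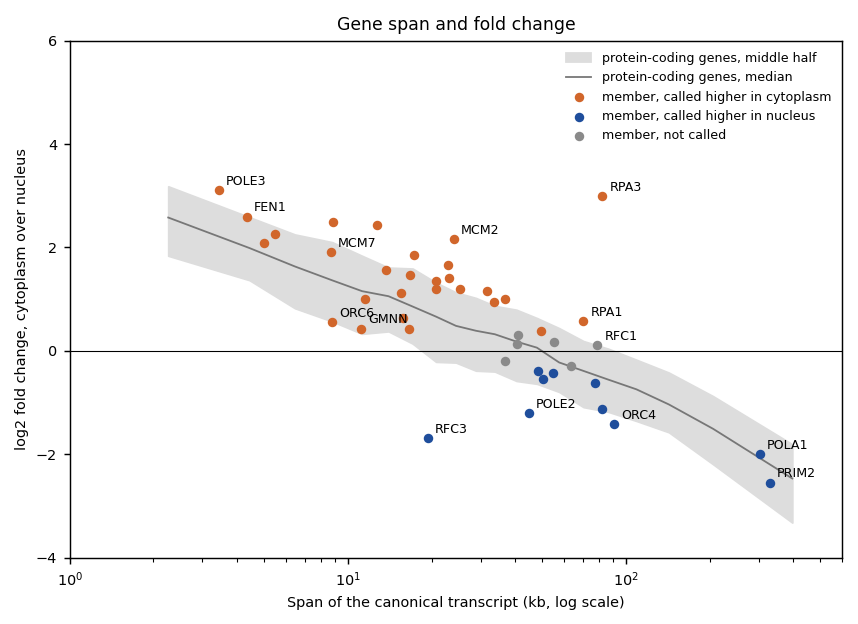
Log2 fold change, cytoplasm over nucleus, against the span of the canonical transcript in kb on a log axis, with the replication genes as points. The grey line and band are the median and the range between the quartiles of protein-coding genes whose mean normalized count exceeded 50, in 20 bins of span. RPA3 lies far above the band and RFC3 far below.

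Other GENCODE 44 genes cover at least some of the span of 27 of the 44 genes. They cover over 50% of the span of 6 (MCM8, GINS4, POLA2, PRIM1, RPA3 and FEN1), and how this affected their counts was not tested. Without these 6, 24 genes were called cytoplasmic and 9 nuclear. Of 12 listed processed pseudogenes of the set, 2 had any counts, each with a mean of 0.586.

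The nuclear libraries differed from each other in a way that followed gene span. All 7 replication genes of up to 10 kb had a higher normalized count in the shallower nuclear library, as did 75.3% of 2384 protein-coding genes of that span. POLE3 showed the largest difference, 797 against 557, and RPA3 the next, 180 against 140. Of the 12 replication genes over 50 kb, 7 were higher in the shallower and 5 in the deeper nuclear library, where 29.5% of 4363 protein-coding genes were higher in the shallower one. PRIM2 and POLA1 were both higher in the deeper nuclear library. Between the cytoplasmic libraries, 60.4% of the protein-coding genes of up to 10 kb and 58.95% of those over 50 kb were higher in the shallower one. These differences were small beside most fold changes, with a median absolute log2 ratio of 0.10 between the nuclear and 0.11 between the cytoplasmic libraries over the 44 genes, and their cause was not tested. Of the 38 called genes, 32 were called in each of the 4 limma-voom fits that left out a library.

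**Figure D4:**
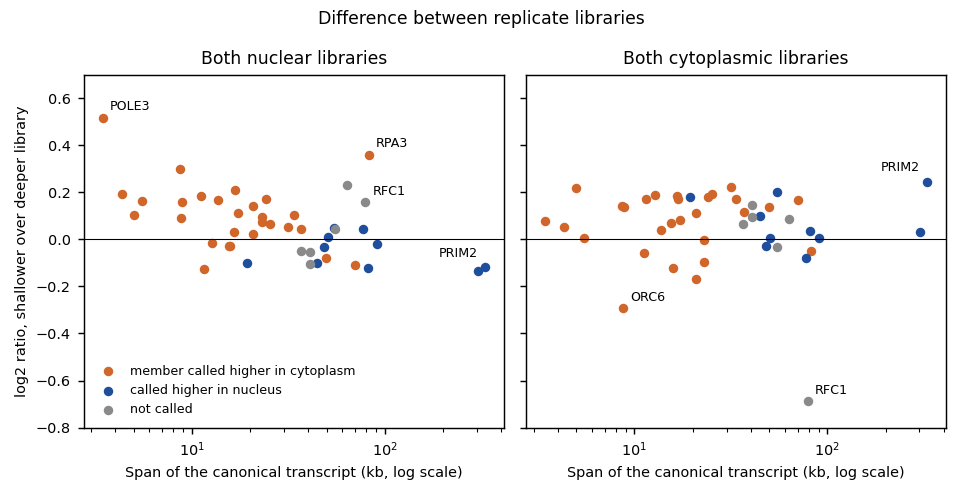
Log2 ratio of the shallower to the deeper library of a fraction (vertical axis) against the span of the canonical transcript in kb on a log axis, for each replication gene. In the nuclear panel the 7 shortest genes lie above zero with POLE3 the highest, and in the cytoplasmic panel RFC1 is the point farthest from zero.

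A further 36 genes of the wider replication pathway were listed by function. Of these, 17 (47.2%) were called cytoplasmic, 13 (36.1%) nuclear and 6 did not pass the test, against 25.9% and 26.5% of all tested genes. Their median log2 fold change was 0.31 and their median gene span 43.0 kb, beside 0.79 and 32.7 kb for the 44 genes. The 4 largest cytoplasmic values were those of POLD4, the small subunit of polymerase delta, at 2.49, of RNASEH2A and RNASEH2C, subunits of the nuclease that removes RNA from DNA, at 2.398 and 1.91, and of LRWD1, which binds ORC, at 1.81. The 4 largest nuclear values were those of MTBP, a partner of the origin-firing factor TICRR, at -1.56, of the primase-polymerase gene PRIMPOL at -1.49, of ATAD5, which unloads PCNA, at -1.45, and of MCM9, the partner of MCM8, at -1.39. The RNase H2 genes were split in turn, with RNASEH2B called nuclear at -0.92. With POLD4, 3 of the 4 polymerase delta genes were called cytoplasmic. With equal totals 10 of the 36 genes (27.8%) were called cytoplasmic and 18 (50%) nuclear, against 16.2% and 38.3% of all tested genes.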

How the data were processed

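RNA of 2 nuclear and 2 cytoplasmic HEK293T fractions was read as paired ends of 100 nt. Per the labels and methods, the authors aligned reads to hg38 with STAR, counted exons and introns with featureCounts 2.0.2 on an extended GENCODE annotation without stretches shared by several genes, and tested with DESeq2. The strand setting is not given in the sources used here. The deposited mean is a signal, the authors' normalized count averaged over all libraries. The deposited log2 fold change and standard error, the Wald score and the p-value are the authors' DESeq2 output and are printed as such, each over all 4 libraries.

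Library counts were recovered by finding the whole counts that return the deposited mean, fold change and error. On simulated data 1613 of 1628 genes were recovered and 0 wrongly. The simulated rows were drawn from recovered genes with the formulas that the recovery inverts. They therefore could not test those formulas or the genes without recovered counts. Counts were fitted with limma 3.58.1 (voom, the authors' size factors of 1.34, 1.19, 0.853 and 0.755) in R 4.3.3, a fit chosen after the data were seen. On simulated data it found 147 of 200 genes changed 2-fold, with 12 false calls among 19777 genes. Set beside the 147 right calls, these 12 were a larger share of the calls than the adjusted p-value threshold used for calling. Calls of this fit near that threshold are therefore less certain than their adjusted p-values state. Spans came from GENCODE 44 and promoters from RefSeq. Named genes were all members, the 4 largest calls in each direction of the wider pathway and fixed fraction and cell markers. Members and lists were chosen with earlier results of these data known. Alternatives were the threshold, adjustment, scaling, filter, length measure, replicate block and each library left out. No batch is given in the labels. The p-values rest on 2 replicates per fraction and on a variance estimated with the help of other genes.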

Additional observations from a re-analysis of the deposited data

How the results depend on the processing

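The recovered libraries carry no replicate number, so which nuclear and cytoplasmic libraries belong together is not known, and both possible pairings were fitted with limma-voom and a replicate block, a choice made after the data were seen. With the deeper libraries paired, 24 members were cytoplasmic and 8 nuclear, and MCM8, MCM10, ORC2, ORC6, GMNN and RFC4 were no longer called (adjusted p-values from 0.0125 to 0.0231). With each deeper library paired with a shallower one, 29 were cytoplasmic and 11 nuclear, GINS1 and POLE being added. The block changed no other call of a member. The median standard error of a member stood in for the spread of the median. That error measures the noise of a single gene between libraries and not the spread of values across the members.

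Counts of members called stayed within 1.5 times the reported ones under the settings run, except that 6 were nuclear when a log2 fold change over 1 was also needed. They ranged from 20 to 29 for the cytoplasm (20 with equal totals) and from 6 to 14 for the nucleus. With a library left out of the limma-voom fit, 26 to 27 members were cytoplasmic and 8 to 10 nuclear. Equal totals, which lower every value by construction, gave a median of 0.13 and 10 cytoplasmic calls among the other replication genes. The median ran from 0.77 to 0.85 with a library left out. The rank correlation with length was -0.399 for exonic length, -0.704 for intron length, -0.690 for the canonical span and -0.701 to -0.689 with a library left out. With equal totals the sign changed for MCM10 (-0.27), ORC6 (-0.11), GMNN (-0.23), CDC45 (-0.52), GINS1 (-0.36), GINS4 (-0.031), RFC1 (-0.56), RFC4 (-0.23), RPA1 (-0.091) and LIG1 (-0.49), of which CDC45 and LIG1 were then called nuclear. POLA2 (-0.86) and POLE (-0.95) were then called nuclear, and POLD1 (0.29) and POLE4 (0.33) were no longer called. Centring on the protein-coding median put RFC1 at -0.0055 and ended the calls of MCM10, GMNN and RFC4, and POLE became a nuclear call (-0.40). RFC1 ranged from -0.28 to 0.41 with a library left out, with -0.011 without the deeper nuclear one. POLE ranged from -0.40 to -0.17 with a library left out. In these fits the lone library of a fraction is assumed to vary like the others. The adjusted p-value of MCM2 was smaller in each of them than with all 4 libraries, so a call kept there is weak evidence.

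With 2 libraries per fraction, small differences were less certain: the 6 members whose calls were lost with a library left out had absolute log2 fold changes from 0.39 to 0.55. The lowest recovered count of a member was 188, that of RPA3 in the deeper nuclear library, so counting error was small for the members.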
